A study of Mus musculus with 4 samples.

Results

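Histone genes and histone variants were followed through 4 microarrays of sorted mouse bone marrow progenitors. Members were the probes whose transcript accession leads, through the RefSeq annotation of GRCm38.p6, to a symbol starting with H1f, H2ac, H2bc, H2aw, H2ax, H2az, H3c, H3f, H4c or Macroh2a. The rule found 62 probes of 51 genes, out of 55681 probes and 21154 named genes on the array. RefSeq holds 85 such symbols, and the other 34 were not matched to a probe by accession. Of the 51 genes, 36 were replication-dependent (3 H1, 10 H2A, 8 H2B, 7 H3 and 8 H4 genes). The remaining genes were 2 linker variants, 5 replacement variants of H2A and H3, 3 macroH2A genes and 5 genes known from germ cells. In the annotation 33 of the 51 lie on chromosome 13, which carries the main histone cluster, and 8 on chromosome 3.

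The marrow came from JAK2V617F;Ezh2flox/flox;Cre-ERT2 mice on a C57BL/6 background and was transplanted into CD45.1+ wild-type recipients after lethal irradiation. JAK2V617F is an activating kinase mutation found in myeloproliferative neoplasms, and Ezh2 is the histone H3 lysine methyltransferase of the Polycomb repressive complex. Once Ezh2 had been deleted, recipients received JQ1 or its solvent DMSO for 2 weeks. JQ1 blocks the bromodomains with which BET proteins bind acetylated histones. LSK cells (lineage-negative, Sca-1-positive, Kit-positive stem and multipotent progenitors) and MEP cells (megakaryocyte and erythroid progenitors) were then sorted, which gave 4 groups with 1 array each, named here DMSO LSK, JQ1 LSK, DMSO MEP and, last, JQ1 MEP. All 4 groups carry JAK2V617F and lack Ezh2, so neither lesion was compared with its absence. The age and number of mice per array, the JQ1 dose, the promoter of the Cre and of JAK2V617F, and whether recipient cells were gated out are not given in the sources used here. With 1 array per group no difference has a replicate check, no test was possible, and differences are described by size alone.

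Core histones H2A, H2B, H3 and H4 form the nucleosome, and H1 binds the linker DNA between nucleosomes. Replication-dependent histone genes are transcribed in S phase in large amounts, and their mRNAs end in a stem-loop bound by Slbp, mostly without a poly(A) tail. Variant histones such as H2A.Z, H3.3, macroH2A and H1.0 come from genes outside these clusters, with polyadenylated mRNAs, and can be deposited outside S phase. The labelling kit used here primes from poly(A) tails, so for replication-dependent genes the signal depends on the transcripts that carry one. The part of tail use in the differences below was not tested.

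The levels below are log2 of the processed signal over the array's 75th percentile, from the brightest probe of each gene. Each difference between arrays is stated with the median measured gene of its comparison set to 0. A gene counted as measured where its probe stood well above background, with no outlier mark, on both arrays, and it was called higher or lower from 2-fold, a log2 difference of 1. Different probes of 1 gene differed by 0.26 log2 (SD) for JQ1 in LSK, 0.39 for JQ1 in MEP, 0.37 for DMSO MEP versus DMSO LSK and 0.28 for JQ1 MEP versus JQ1 LSK. This SD covers probe error only and leaves out mice, sorts and labelling. Of the 51 members 49 were measured on all 4 arrays. H1f7 was above background on none, and H2bc23 on JQ1 LSK and DMSO MEP alone. Many of these genes code for nearly the same protein and their probes may share signal, so values within a class are not independent.

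The arrays differed in ways that touch the histone values. DMSO MEP stood apart, with 53.3% of probes well above background against 45.3% to 47.4% on the others. Its correlation with the other arrays over probes above background on all 4 was 0.973 to 0.976, whereas the LSK pair reached 0.991. Pairs of JQ1 MEP and an LSK array lay between, at 0.979 (DMSO) and 0.982 (JQ1). Both were nearer to the DMSO MEP values than to the LSK pair. The 13 immediate early and nuclear RNAs listed (such as Fos and Malat1) summed to a log2 signal of 8.99 on DMSO MEP and of 7.04 to 7.31 on the others. All 13 were at least 2-fold lower on JQ1 MEP than on DMSO MEP, against 5.79% of all measured genes. Markers of the sorted types were checked. All 10 MEP markers were at least 2-fold higher in MEP under both treatments, against 5.7% of all measured genes under DMSO and 3.96% under JQ1. The erythroid factor Klf1 stood at 3.79 under DMSO and 4.74 under JQ1. Of the LSK markers, 8 of 10 measured were lower in MEP under DMSO and 8 of 9 under JQ1. Of these, 3 and 6 were lower by 2-fold, against 4.32% and 4.02% of all measured genes. Ly6a, which encodes the gating marker Sca-1, stood at -4.58 and -4.13. Against the list, Slamf1 was higher in MEP (2.35 and 1.18), Mecom was higher under DMSO (0.87), and Meis1 and Hoxa9 were near 0 under DMSO (-0.04 and -0.07). The 12 lymphoid markers were lower with JQ1 in LSK (median -2.39), and their summed log2 signal was 8.83 with DMSO and 7.89 with JQ1 in LSK, and 6.75 with DMSO and 6.11 with JQ1 in MEP, with all 12 above background on every array. The part of the DMSO MEP array or of lymphoid cells in the histone values was not tested, and fewer cells of a type cannot be told apart from less RNA per cell.

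For most replication-dependent genes the same arrays were highest and lowest, and these ends are called the array order below. The JQ1 arrays between them came in either order. With the median gene taken off each array, 30 of the 35 measured genes were highest on DMSO LSK, against 26.1% of all genes. Of the 35, 26 (74.3%) were both highest on DMSO LSK and lowest on DMSO MEP, against 12.8% of all genes measured on the 4 arrays. In the levels as printed below, which keep each array's shift, this held for 29 of the 35 against 13% of all genes, and H3c1, H3c8 and H4c9 joined. By class, with the median gene taken off, it held for 3 of 3 H1, 10 of 10 H2A, 3 of 7 H2B, 5 of 7 H3 and 5 of 8 H4 genes. The 9 exceptions were H2bc21, H2bc22, H2bc4, H2bc6, H3c1, H3c8, H4c17, H4c8 and H4c9. Centring here is by array and not by comparison, so H3c3 was counted although its JQ1 difference in MEP was -0.01. H4c4, an H4 gene, read 10.80 with DMSO and 10.41 with JQ1 in LSK, and 9.64 with DMSO and 10.45 with JQ1 in MEP. H2ac4, an H2A gene, read 9.88, 9.47, 8.66 and 9.48 in that order. In both genes the DMSO arrays mark the ends, and the JQ1 arrays of the cell types nearly meet. The 75th percentile taken off each array ran the other way. It was lowest on DMSO LSK (210 intensity units) and highest on DMSO MEP (327), with 245 on JQ1 LSK and 233 on JQ1 MEP. The part of this scaling in the array order was not tested, nor was compression of signal at the brightest probes.

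**Figure D1:**
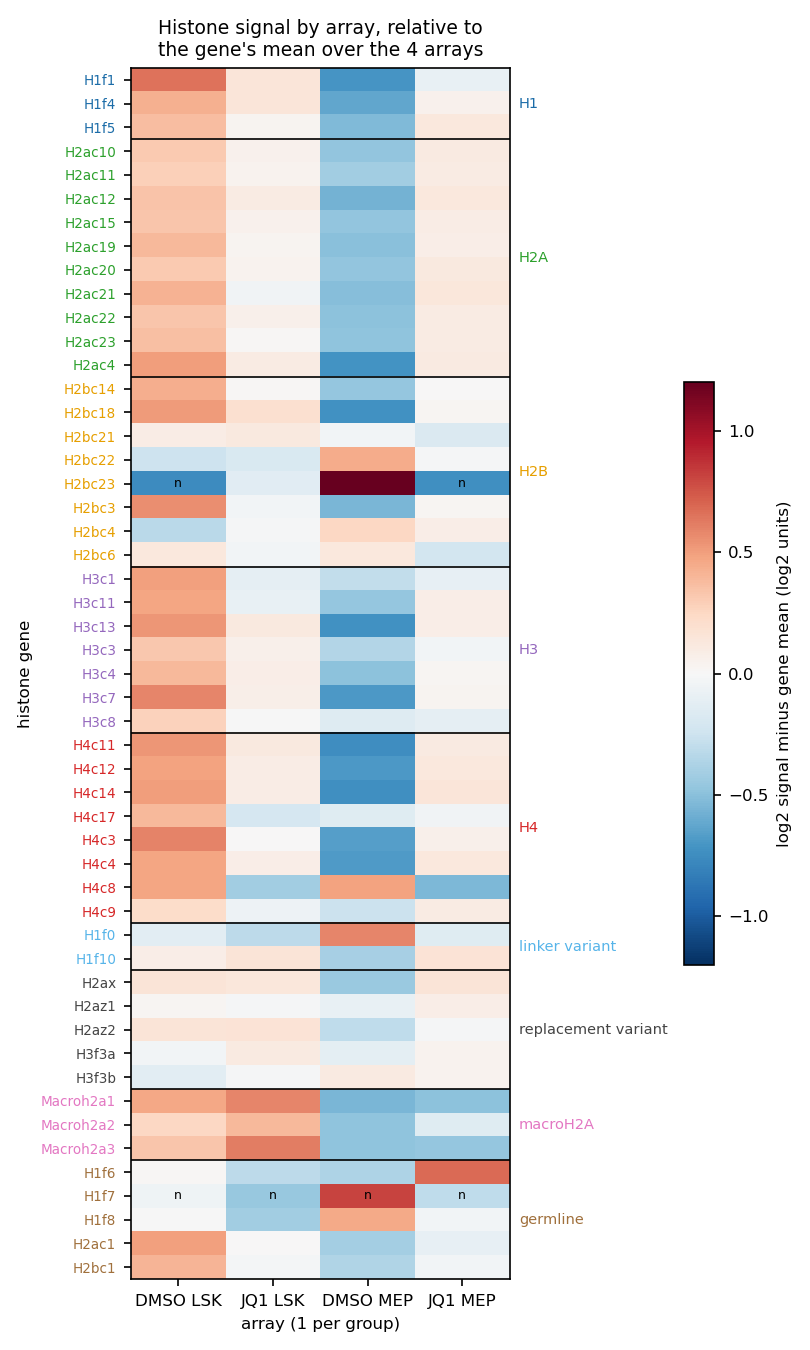
Heat map of the 51 histone genes (rows, by class) on the 4 arrays (columns, 1 array per group). Colour is the log2 level minus the mean of that gene over the 4 arrays, and n marks a value not well above background. Most replication-dependent rows are red on DMSO LSK and blue on DMSO MEP, with H2bc22, H2bc23, H2bc4, H2bc6 and H4c8 departing from this. The 3 macroH2A rows are red on both LSK arrays and blue on both MEP arrays.

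The promoters of 6 members are shown. H1f4, H2ac4, H2bc18 and H4c4 are replication-dependent genes of different classes that had this array order themselves, and H3f3b and Macroh2a1 are variants that had not. Each line holds the 150 bases before the annotated start, from RefSeq on GRCm38.p6, 5′ to 3′ on the gene's strand. The windows are chr13:23622559-23622708 (minus strand) for H1f4, chr13:23750938-23751087 (plus) for H2ac4, chr3:96269550-96269699 (plus) for H2bc18, chr13:23581418-23581567 (plus) for H4c4, chr11:116024505-116024654 (minus) for H3f3b and chr13:56135551-56135700 (minus) for Macroh2a1. Capitals mark matches, on either strand, to the octamer ATTTGCAT, the CCAAT box, the TATA box TATAAA and the H1 box AAACACA. These motifs were chosen with the results known, and no printed match overlaps another.
H1f4: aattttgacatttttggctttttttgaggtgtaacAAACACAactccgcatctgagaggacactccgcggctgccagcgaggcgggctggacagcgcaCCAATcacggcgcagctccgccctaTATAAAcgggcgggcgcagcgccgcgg
H2ac4: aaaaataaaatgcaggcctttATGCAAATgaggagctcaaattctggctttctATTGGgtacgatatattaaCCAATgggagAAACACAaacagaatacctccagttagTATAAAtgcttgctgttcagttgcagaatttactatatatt
H2bc18: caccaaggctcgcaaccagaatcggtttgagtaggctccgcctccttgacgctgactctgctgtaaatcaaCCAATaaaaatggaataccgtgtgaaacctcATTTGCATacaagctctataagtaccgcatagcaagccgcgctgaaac
H4c4: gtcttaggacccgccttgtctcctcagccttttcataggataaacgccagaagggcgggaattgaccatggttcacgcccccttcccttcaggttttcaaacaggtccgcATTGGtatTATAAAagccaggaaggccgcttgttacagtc
H3f3b: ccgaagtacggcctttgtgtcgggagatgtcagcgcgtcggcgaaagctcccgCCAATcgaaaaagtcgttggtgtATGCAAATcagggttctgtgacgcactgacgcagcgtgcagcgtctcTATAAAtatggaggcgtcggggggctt
Macroh2a1: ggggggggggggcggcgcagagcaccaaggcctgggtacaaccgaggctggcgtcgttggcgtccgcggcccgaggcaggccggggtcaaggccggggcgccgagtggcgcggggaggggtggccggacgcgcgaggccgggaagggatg

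A promoter entry existed for 44 of the 51 members, and the motifs were counted in the 250 bases before the start. CCAAT was in 26 of 31 replication-dependent promoters (83.9%), against 33.8% of all 32851 promoters in the table. By class it was in every H1, H2A, H2B and H3 promoter and in 2 of 7 H4 promoters. TATAAA was in 15 of the 31 (48.4%) against 12.4% of all promoters. The octamer, known as an element of H2B promoters, was in 4 of 6 H2B and 3 of 10 H2A promoters, against 1.6% of all, and in none of the H1, H3 and H4 promoters. The H1 box was in 2 of 3 H1 promoters against 6.25% of all. Other classes held these motifs too. CCAAT was in all 4 replacement variant promoters and in 4 of 5 germline promoters, and the H1 box in 3 of 5 germline promoters. H3f3b held the octamer, CCAAT and TATAAA, and both macroH2A promoters with an entry held none of the 4 motifs. A match describes letters and does not show binding.

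With JQ1 in LSK, replication-dependent histone signal was lower in the median of all 5 classes, by less than 2-fold in every gene. The median over 35 genes was -0.41, and 34 of the 35 lay below the median measured gene. None reached 2-fold in either direction, where 0.551% of all measured genes were higher and 3.23% lower. At 1.5-fold, a size added after the values were seen, 6 of the 35 were lower and none higher, against 7.55% and 2.36% of all measured genes. These 6 were H2bc3, H3c1, H3c11, H4c17, H4c3 and H4c8. Class medians were -0.40 for H1, -0.34 for H2A, -0.22 for H2B, -0.47 for H3 and -0.48 for H4. The probe SD of a single gene was 0.26. H4c8, an H4 gene with dim signal, was lowest at -0.95, with -0.62 under normexp background correction. H2bc4, an H2B gene, was the exception above the median gene at 0.25.

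All 3 replication-dependent linker histones among the members took part. H1f1 (H1.1) read 5.41 with DMSO and 4.90 with JQ1 in LSK, and 4.05 with DMSO and 4.67 with JQ1 in MEP. H1f4 (H1.4) read 8.27, 7.98, 7.21 and 7.89 in the same order. H1f5 (H1.5) read 7.55, 7.21, 6.65 and 7.30. Each was highest on DMSO LSK and lowest on DMSO MEP. The JQ1 difference in LSK was -0.57 for H1f1, -0.35 for H1f4 and -0.40 for H1f5.

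In MEP the same genes were on balance higher with JQ1, and the classes divided. The median over the 35 replication-dependent genes was 0.24, with 26 above and 9 below the median measured gene. At 2-fold none was higher and 1 was lower, where 0.987% of all measured genes were higher and 5.79% lower. At 1.5-fold none was higher and 3 were lower (H2bc22, H2bc6 and H4c8), against 4.13% and 13.7% of all measured genes. Class medians were 0.32 for H1, 0.25 for H2A, 0.18 for H3 and 0.43 for H4, but -0.48 for H2B. The probe SD of a single gene was 0.39. Every H1 and H2A gene was above the median gene, at 0.28 to 0.34 and 0.18 to 0.49. H4c8 was the called gene at -1.36, with levels of -1.28 with DMSO and -2.17 with JQ1 in LSK, and -1.26 with DMSO and -2.29 with JQ1 in MEP. Both its JQ1 arrays were below both DMSO arrays, and its value was -0.95 under quantile normalization and -0.74 under normexp, which end the call.

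The 4 H2B genes below the median gene in MEP were H2bc4 (-0.50), H2bc21 (-0.48), H2bc6 (-0.68) and H2bc22 (-0.80). H2bc4 read 3.94 with DMSO and 4.24 with JQ1 in LSK, and 4.50 with DMSO and 4.34 with JQ1 in MEP, so that its highest array was DMSO MEP and its lowest DMSO LSK, the reverse of the main pattern. The other 3 and H4c8 were the replication-dependent members measured on all 4 arrays that lay under the 75th percentile on every array. Those 4 dim genes had a median of -0.74 with JQ1 in MEP, where all 3272 genes measured in that signal range had -0.22. H2bc23 was not well above background on DMSO LSK and JQ1 MEP, so it has no measured difference. Before centring, its DMSO MEP reading was 5.12-fold that on JQ1 MEP and 5.19-fold that on DMSO LSK. Its JQ1 LSK reading was 1.54-fold that on DMSO LSK and 1.52-fold that on JQ1 MEP. These are ratios to readings not well above background, and no bound was set. The remaining H2B genes followed the other classes. H2bc18 read 5.42 with DMSO and 5.10 with JQ1 in LSK, and 4.19 with DMSO and 4.93 with JQ1 in MEP, which put DMSO MEP lowest.

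**Figure D2:**
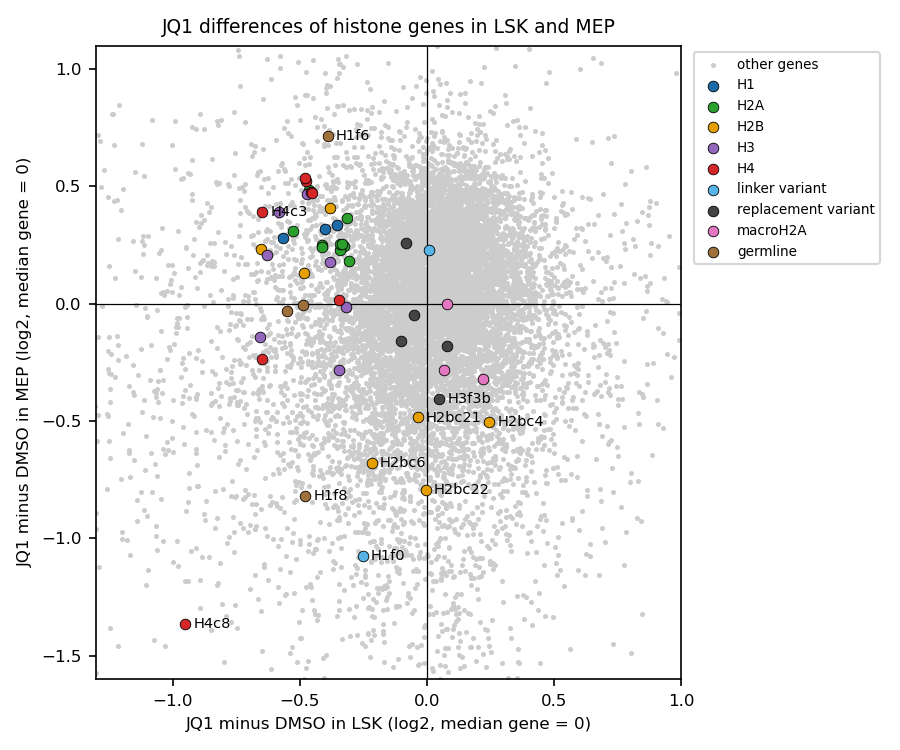
JQ1 minus DMSO in LSK (x axis) against the same in MEP (y axis), both in log2 relative to the median measured gene, for the 49 histone genes measured on all 4 arrays (coloured by class) and other measured genes (grey, with those beyond the axes not drawn). Most H1, H2A, H3 and H4 genes lie at the upper left, lower in LSK and higher in MEP, while H4c8, H1f0, H1f8 and 4 H2B genes lie at or below -0.48 on the y axis.

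Set side by side, 26 of the 35 replication-dependent genes (74.3%) were below the median gene with JQ1 in LSK and above it in MEP, against 22.6% of all genes measured on the 4 arrays. This count comes from the same 4 values per gene as the array order and shares 25 genes with it, with H3c3 in the array order alone and H4c9 in this count alone, so it is no independent evidence. Marker lists of other cell types held such genes too, namely 3 of 4 late erythroid, 5 of 10 granulocytic and monocytic, 3 of 4 stromal and endothelial, 4 of 10 MEP and 3 of 12 lymphoid markers. The medians of MEP minus LSK over these lists were 1.03, 0.48, 0.84, 0.42 and 0.64. The other 9 of the 12 lymphoid markers were below the median gene in both cell types. Further lists were under the 22.6% of all genes. These were the LSK markers (1 of 9), the immediate early and nuclear RNAs (0 of 13), S phase genes (6 of 29) and mitosis genes (4 of 18). The neutrophil granule gene Elane stood at -1.09 in LSK and 1.40 in MEP. Other granulocytic and monocytic markers did not follow it. Of the 10, 3 were above the median gene in both cell types, such as Camp (1.91 in LSK and 0.48 in MEP). A further 1 was below it in both, and 1 was above it in LSK and below it in MEP. The summed log2 signal of the granulocytic and monocytic list was 10.97 with DMSO and 10.38 with JQ1 in LSK, and 10.60 with DMSO and 11.21 with JQ1 in MEP. The part of these cell types in the histone values was not tested. Subtracting the JQ1 difference of LSK from that of MEP gave a median of 0.66, positive for 30 of the 35. Of all genes measured on the 4 arrays, 50.9% were positive, with a median of 0.01. Positive values were also found in 20 of 29 S phase and 14 of 18 mitosis genes, with medians of 0.12 and 0.05. By class the histone median was 0.72 for H1, 0.63 for H2A, 0.56 for H3, 0.93 for H4 and -0.45 for H2B. The probe SD of such a difference was 0.47, and whether the cell types differ was not tested. It rests in part on DMSO MEP, the array that stood apart, and no value of JQ1 in MEP can be had without that array. The values in LSK and those of JQ1 MEP against JQ1 LSK do not use it.

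MEP cells given DMSO had less replication-dependent histone signal than LSK cells given DMSO, relative to the median gene. Under DMSO the median over 35 genes was -0.68, 30 of them were below the median measured gene, and 8 were lower by 2-fold, where 4.32% of all measured genes were lower and 5.7% higher. None was higher by 2-fold. At 1.5-fold 22 were lower and 2 higher, against 11.9% and 14% of all measured genes. Class medians were -0.84 for H1, -0.62 for H2A, -0.67 for H3 and -0.94 for H4, with H2B at 0.10. The H2B genes were divided, with H2bc14, H2bc18 and H2bc3 at -0.69, -1.02 and -0.89. Above the median gene were the dim H2bc21, H2bc22 and H2bc6 (0.10, 0.91 and 0.21) and the brighter H2bc4 (0.79). The 8 called genes lay just past the size rule, from -1.0 to -1.14, and all 8 fall short of it under normexp background correction. This comparison shares DMSO LSK with the LSK comparison and DMSO MEP with the MEP comparison.

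Of the 8, H1f1 (-1.14) and H2ac4 (-1.0) have been given above with their levels, and H2bc18 stood at -1.02. Among the H3 genes, H3c13 (-1.04) read 6.75 with DMSO and 6.34 with JQ1 in LSK, and 5.49 with DMSO and 6.29 with JQ1 in MEP. H3c7 (-1.06) read 3.33, 2.81, 2.05 and 2.78. For both H3 genes DMSO LSK was highest and the JQ1 arrays of the cell types nearly met. Among the H4 genes, H4c11 (-1.06) read 5.76, 5.35, 4.49 and 5.34. H4c3 (-1.04) read 5.08, 4.50, 3.82 and 4.55. H4c14 (-1.02) read 10.02, 9.61, 8.79 and 9.66. DMSO MEP was the lowest array for all 8. H4c14 has a second, dimmer probe that read -0.02 in this comparison and -0.82 with JQ1 in MEP, where the brighter probe read 0.54, and the mean of both (-0.53 for MEP versus LSK) ends its call. H4c12, H4c4 and H2ac15 also have 2 probes, and within each gene these differed by at most 0.27 in any comparison. On the other side H2bc22 (0.91) and H2bc4 (0.79) were higher in MEP.

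Under JQ1 the cell types were nearly level for these genes. The median of MEP versus LSK was -0.03 over the 35, and the range was -0.36 (H2bc21) to 0.11. None was 2-fold higher or lower, where 3.96% and 4.02% of all measured genes were. At 1.5-fold none was lower or higher either, against 10.8% and 8.56% of all measured genes. The 10 H2A genes lay between -0.06 and 0.11, well inside the probe SD of 0.28. This comparison uses neither DMSO array.

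Centring on the median gene matters for the direction. Scaled to the 75th percentile and before centring, the median measured gene shifted by 0.06 for JQ1 in LSK and 0.34 for JQ1 in MEP, and for MEP versus LSK by -0.22 under DMSO and 0.07 under JQ1. The replication-dependent median was then -0.35, 0.58, -0.89 and 0.04. Scaled instead to the one-colour spike-in RNA, the median measured gene shifted by 0.71, -0.60, 1.02 and -0.27, and the replication-dependent median by 0.30, -0.35, 0.35 and -0.31. Before centring, the sign of the histone difference therefore turned with the spike-in scaling in each comparison. Relative to the median gene it did not, since rescaling an array leaves those values as they are. The statement for the family is thus one of histone signal relative to most other genes, and the amount per cell was not measured.

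Differences also varied with signal strength, and many histone probes are among the brightest on the array. Among the top twentieth of measured genes by mean signal, 598 other genes had a median of -0.09 with JQ1 in LSK (quartiles -0.17 and 0.03). The 16 replication-dependent histones in that range had a median of -0.39, and all 16 lay below the lower quartile. For MEP versus LSK under DMSO, 601 other bright genes had a median of -0.11 (lower quartile -0.28) and the 16 histones -0.68, again with all 16 below the lower quartile. With JQ1 in MEP the separation was smaller, at 0.11 for 607 other genes and 0.25 for 17 histones, 7 of which were above the upper quartile of 0.32. Under JQ1, MEP versus LSK gave 0.03 for 594 other genes and -0.03 for 16 histones, 3 of them below the lower quartile. These are descriptions of the same arrays and carry no test.

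**Figure D3:**
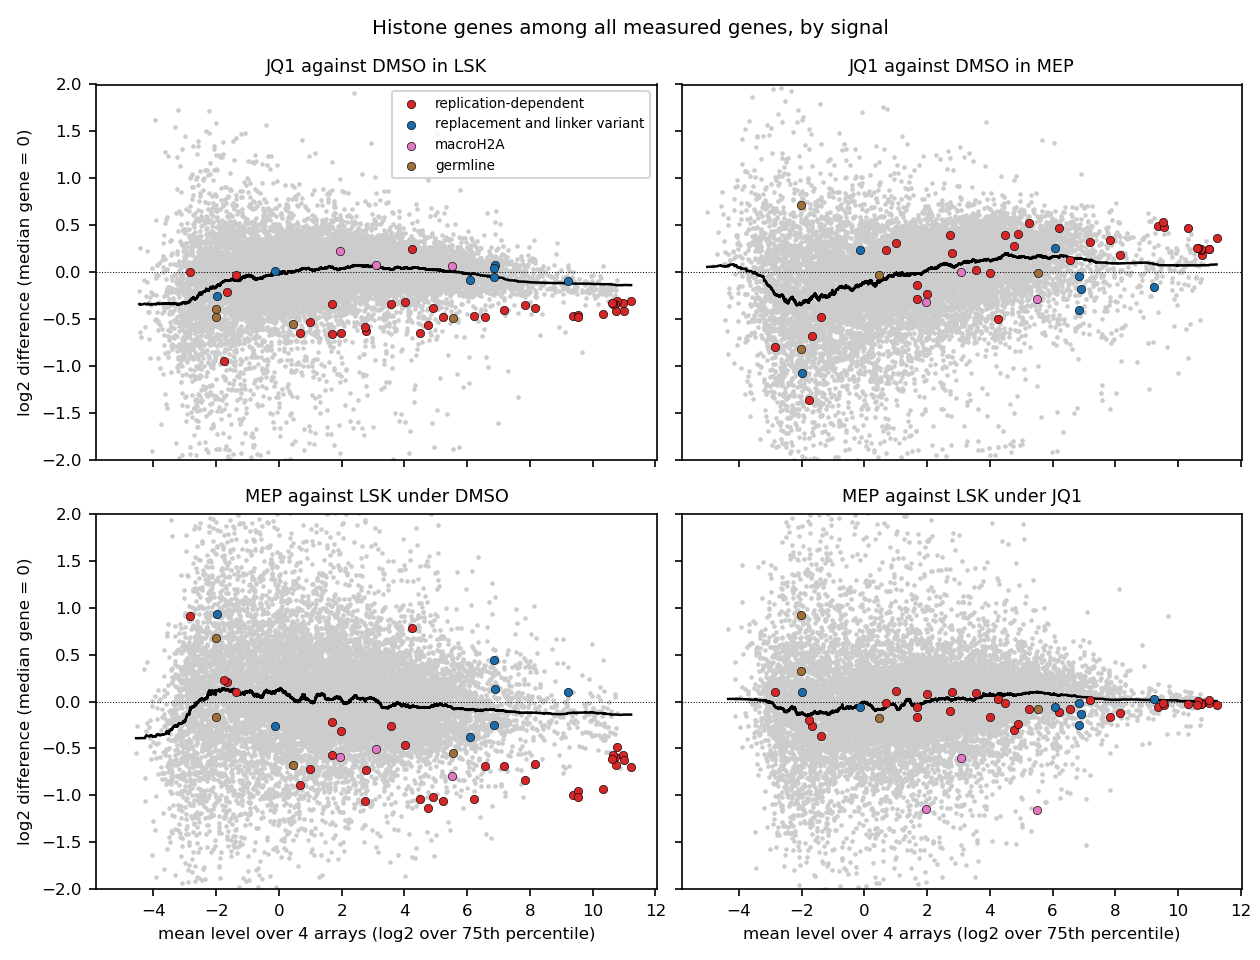
Log2 difference relative to the median measured gene (y axis, dotted line at 0) against mean level over the 4 arrays in log2 over the 75th percentile (x axis), in 1 panel per comparison. Grey points are measured genes, the black line is their running median over 500 genes, and coloured points are histone genes. Points beyond 2 log2 units are not drawn. Red replication-dependent genes lie mostly below the line in the LSK and DMSO panels, mostly above it with JQ1 in MEP, and on it for MEP versus LSK under JQ1.

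Replacement variants were divided. With the median gene taken off each array, H2ax and H2az2 had the array order of most replication-dependent genes, and the other 3 had not. For H2az2 this hung on centring by array, since its JQ1 difference in MEP was -0.05 relative to the median gene of that comparison. In the levels as printed H2ax alone had the array order. The 5 genes had medians of -0.05 for JQ1 in LSK and -0.16 in MEP. None was called in any comparison, where 0.551% to 5.7% of all measured genes were higher and 3.23% to 5.79% lower. H2ax, whose protein is phosphorylated at DNA breaks, read 6.24 with DMSO and 6.22 with JQ1 in LSK, and 5.65 with DMSO and 6.24 with JQ1 in MEP. DMSO MEP was its low array, and the other 3 were nearly level. H2az1 (H2A.Z.1, a variant placed around promoters) read 9.25, 9.21, 9.13 and 9.31, an overall range within the probe SD. H2az2 (H2A.Z.2) read 7.02, 7.03, 6.55 and 6.84, with both MEP arrays below both LSK arrays. Its other, dimmer probe was highest on JQ1 LSK, at 0.32 for JQ1 in LSK and -0.65 for MEP versus LSK under JQ1.

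H3.3, the H3 variant deposited outside replication by Hira and by Daxx with Atrx, is encoded by H3f3a and H3f3b. H3f3a read 6.86 with DMSO and 7.0 with JQ1 in LSK, and 6.78 with DMSO and 6.93 with JQ1 in MEP. H3f3b read 6.72, 6.83, 6.95 and 6.88. With JQ1 in LSK the brightest probes moved by less than the probe SD (0.08 and 0.05). In MEP H3f3b stood at -0.40, but its 3 probes spread from -1.75 to -0.04 there and from 0.06 to 1.09 for MEP versus LSK under DMSO. The size of the H3f3b difference thus depended on the probe wherever DMSO MEP was used, and also with JQ1 in LSK, where the range was -0.55 to 0.05. Between the JQ1 arrays the 3 probes lay close together, at -0.12 to -0.01 for MEP versus LSK.

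The linker variants went separate ways. H1f0 (H1.0), which accumulates in differentiating and non-dividing cells, read -2.12 with DMSO and -2.31 with JQ1 in LSK, and -1.40 with DMSO and -2.14 with JQ1 in MEP. It was high on DMSO MEP alone, by 0.93 against DMSO LSK, and was lower with JQ1 in MEP by 2-fold (-1.07). The signal is dim, and the value was -0.66 under quantile normalization and -0.58 under normexp, which end the call. H1f10 (H1x) read -0.05, 0.02, -0.53 and 0.04, and its differences of -0.26 to 0.23 stayed within the probe SD.

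MacroH2A genes differed by cell type under both treatments. MacroH2A carries a large additional macro domain and is known from repressed chromatin, including the inactive X chromosome. Macroh2a1 read 5.98 with DMSO and 6.11 with JQ1 in LSK, and 4.97 with DMSO and 5.02 with JQ1 in MEP. Macroh2a2 read 3.33, 3.47, 2.60 and 2.94. Macroh2a3, annotated as a transcribed pseudogene, read 2.28, 2.57, 1.47 and 1.49. In all 3 both MEP arrays were below both LSK arrays. Under JQ1 the difference of MEP versus LSK was -1.15 for Macroh2a1, -0.61 for Macroh2a2 and -1.15 for Macroh2a3, 2 of 3 past 2-fold, where 4.02% of all measured genes were lower. Under DMSO it was -0.79, -0.51 and -0.59, none of them past 2-fold, where 4.32% of all measured genes were lower. The comparison under JQ1 does not use the DMSO MEP array. Before centring and with spike-in scaling, the macroH2A median was 0.43 under DMSO and -1.42 under JQ1, so that the sign under DMSO turns with that scaling. All 3 probes of Macroh2a1 were lower in MEP, at -0.94 to -0.76 under DMSO and -1.17 to -1.0 under JQ1.

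JQ1 itself moved the macroH2A genes little. In LSK they read 0.07, 0.08 and 0.22 for Macroh2a1, Macroh2a2 and Macroh2a3, and in MEP -0.28, -0.0025 and -0.32, all within the probe SD of 0.26 and 0.39. The direction for Macroh2a1 in LSK depended on the probe, with a range of -0.30 to 0.11 over its 3 probes. Macroh2a1 and most replication-dependent genes lie on chromosome 13, and the array order of Macroh2a1 differed from that of most of them. All 3 macroH2A genes were highest on JQ1 LSK, against 19.0% of all genes measured on the 4 arrays. Of the replication-dependent genes, 26 of 35 were lowest on DMSO MEP, against 35.8% of all genes.

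**Figure D4:**
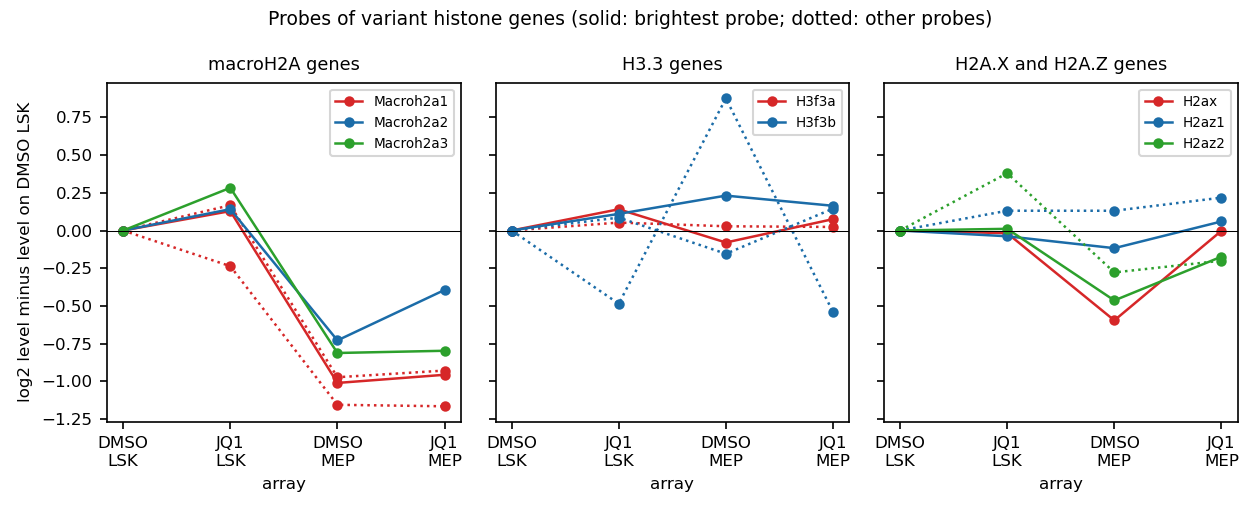
Log2 level of each probe minus its level on DMSO LSK (y axis) on the 4 arrays (x axis, 1 array per group), for macroH2A, H3.3, and H2A.X and H2A.Z genes. Solid lines are the brightest probe of a gene and dotted lines its other probes. The macroH2A probes lie lower on both MEP arrays, whereas the 3 H3f3b probes part on DMSO MEP.

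Of the 5 genes known from germ cells, 4 were measured, with a median of -0.48 for JQ1 in LSK and -0.02 in MEP. H2bc1, a testis H2B gene in the chromosome 13 cluster, read 5.95 with DMSO and 5.53 with JQ1 in LSK, and 5.19 with DMSO and 5.52 with JQ1 in MEP. H2ac1, a testis H2A gene, read 0.96, 0.47, 0.06 and 0.37. Both had the array order of most replication-dependent genes, to which their probes may be similar. H1f6, the testis linker histone H1t, read -2.0, -2.33, -2.39 and -1.33, with JQ1 MEP highest. H1f8, the oocyte linker histone, read -2.02, -2.44, -1.57 and -2.05.

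Histone genes outside the symbol rule were compared from a separate list. H4f16, a further H4 gene, stood at -0.45 with JQ1 in LSK and 0.49 with JQ1 in MEP, and for MEP versus LSK at -0.97 under DMSO and -0.04 under JQ1. H2aj, an H2A variant gene, stood at -0.37, 0.33, -0.71 and -0.02, and so both showed the array order of the rule's H4 and H2A genes. H2ap, a short H2A-like gene, was at -0.98, -0.06, -0.35 and 0.56. Cenpa, the centromeric H3, was at -0.05, -0.44, 0.68 and 0.28. Of 10 genes on this list 7 had a probe and 4 were measured.

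Genes that make, process and carry histones did not share the pattern in LSK. With JQ1 there, 13 measured genes of histone mRNA transcription and 3′ end processing had a median of 0.13, and 26 histone chaperones had 0.06. The median was 0.04 for 29 S phase genes and 0.09 for 20 mitosis genes, against -0.41 for the replication-dependent histones. In MEP the medians were 0.17, 0.19, 0.24 and 0.23 (18 mitosis genes), close to the 0.24 of the histones. For MEP versus LSK under DMSO they were 0.11, -0.05, -0.11 and -0.22, against -0.68. None of the genes on these 4 lists was 2-fold higher or lower in any comparison. Of all measured genes 0.551% to 5.7% were higher and 3.23% to 5.79% lower, depending on the comparison. With the median gene taken off each array, DMSO MEP was the lowest array for 16 of 29 S phase genes and 15 of 18 mitosis genes. DMSO LSK was the highest array for 3 and 4 of them. Over all genes measured on the 4 arrays, DMSO MEP was lowest for 35.8% and DMSO LSK highest for 26.1%.

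Slbp, which binds the stem-loop of histone mRNA, was at 0.03 with JQ1 in LSK and -0.05 with JQ1 in MEP, and for MEP versus LSK at 0.36 under DMSO and 0.27 under JQ1. Npat, the coactivator of histone gene transcription, read -3.00 with DMSO and -2.97 with JQ1 in LSK, and -3.61 with DMSO and -3.96 with JQ1 in MEP, and was above background only on JQ1 LSK and DMSO MEP. In LSK the processing list ran from Eri1 (-0.32), an exonuclease that degrades histone mRNA, and Lsm11 (-0.32), of the U7 particle, to Cstf2 (0.20) and Cpsf2 (0.36) of the cleavage machinery. In MEP it ran from Zfp473 (-0.24) and Hinfp (-0.14), an activator of H4 genes, to Cpsf2 (0.42) and Sympk (0.45).

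Among chaperones, the LSK values ran from Vps72 (-0.30) and Mms22l (-0.21) to Atrx (0.27) and Nap1l4 (0.30). In MEP they were wider, from Hjurp (-0.93), the chaperone of Cenpa, and Asf1a (-0.92), of H3 and H4, to Supt6 (0.66) and Anp32e (0.70), which removes H2A.Z. S phase genes in LSK ran from Tyms (-0.38) and Ccne1 (-0.32) to Pola1 (0.22) and Mcm10 (0.30). In MEP they ran from Cdc45 (-0.86) and Cdk2 (-0.64) to Rrm1 (0.57) and Ccne1 (0.65), the cyclin of S phase entry. Mitosis genes in LSK ran from Aurkb (-0.25) and Ube2c (-0.20) to Kif11 (0.23) and Tpx2 (0.27). In MEP the ends were Cenpa (-0.44) and Cenpe (-0.05), and Kif20a (0.73) and Plk1 (0.82), a mitotic kinase.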

How the data were processed

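Each of the 4 groups was hybridised, from 20 ng of total RNA, to 1 one-colour Agilent array of the same slide. Per the file headers, Feature Extraction 10.7.1.1 read the scans (protocol GE1_107_Sep09), and the array design 028005 has its probes placed on mm9. The deposited scanner files hold an intensity per spot after background subtraction and detrending, and its error. The authors' deposited table holds a linear ratio, which for probes above 1 was the scanner signal over 1 number per array (within 1% for 100% of them). The sources used here do not name the software of that step.

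Spots with an outlier mark were left out, log2 intensities were averaged by probe, and each array's 75th percentile (on the log2 scale) was subtracted. It was 210 and 245 intensity units for LSK with DMSO and JQ1, and 327 and 233 for MEP. No spot was saturated, and the scanner's median error was 10.1% of signal. The number of arrays limits the precision. RefSeq on GRCm38.p6 gave 28026 of 55681 probes a single symbol and 27655 none. Differences were centred on the median measured gene (12275 to 12560 genes). With 1 array per group no model was fitted. Alternatives were another scaling, quantile normalization, normexp (limma 3.58.1, offset 50), the deposited table, all probes of a gene, other signal filters and, added after the values were seen, spike-in scaling, centring by signal and a 1.5-fold size. Normexp used the median spot signal, because the planned mean signal is not a column of these files. Centring and calling were tested on simulated data with a constant shift per array and as many genes raised as lowered. The real differences varied with signal and were unequal, with 519 genes higher and 1720 lower by 1.5-fold for JQ1 in MEP. The simulation did not cover such conditions. Named were all members past 2-fold in a comparison, the H1 genes and the replication-independent variants, and the 2 highest and 2 lowest of each related list per JQ1 comparison with Slbp, Npat and Cenpa. Germline genes, H2bc4 and H4c4, among others, were named after their values were seen. Members and lists were chosen with earlier results of these data known.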

Additional observations from a re-analysis of the deposited data

Results flagged for a closer look

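The JQ1 differences of 3 classes pointed opposite ways in the cell types in every measured member. All 3 H1 genes were lower with JQ1 in LSK and higher in MEP relative to the median gene, with a median difference between cell types (MEP minus LSK) of 0.72. All 10 H2A genes did the same, with a median of 0.63. The brightest probes of all 3 macroH2A genes read above the median gene in LSK and below it in MEP, with a median of -0.35. Of the 12027 genes measured on the 4 arrays, 2771 went that way. The Macroh2a1 probes ranged from -0.30 to 0.11 in LSK, and Macroh2a2 was at -0.0025 in MEP. The difference between the cell types was not tested in any of the 3 classes, since each group has 1 array, and each value takes in the DMSO MEP array.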

How the results depend on the processing

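Median differences kept their sign for all members with JQ1 in LSK (-0.39 to -0.23), with JQ1 in MEP (0.03 to 0.54) and for MEP versus LSK under DMSO (-0.81 to -0.38) under the alternatives here, but not for MEP versus LSK under JQ1 (-0.11 to 0.03). Spike-in scaling before centring is not among these. Against 75th percentile scaling before centring, it turned the replication-dependent median from -0.35, 0.58, -0.89 and 0.04 to 0.30, -0.35, 0.35 and -0.31 in these 4 comparisons. Counts past 2-fold moved. With JQ1 in MEP, members lower by 2-fold numbered 2 in the reported values, 1 before centring (by either the 75th percentile or the median) and with centring by signal, 0 under quantile normalization, with normexp and when only genes brighter than the median were kept, and 4 without the background filter. Members higher there numbered 0, and 1 under quantile normalization, before centring and with centring by signal. For MEP versus LSK under DMSO, members lower numbered 8, against 3 under quantile normalization and with centring by signal, 13 before centring, 0 under normexp and without the filter, and 5 when only those brighter genes were kept. Members higher there numbered 0, against 4 without the filter and 1 with centring by signal. For MEP versus LSK under JQ1, 1 member was higher under quantile normalization and with centring by signal, against 0. The causes were not tested. No paired analysis was possible because each group has 1 array and the groups share a single replicate number. Leaving out an array leaves no comparison that uses it. Signal over background limits the dim members H4c8, H1f0, H2bc6, H2bc21 and H2bc22.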
